A study of Mus musculus with 12 samples.

Results

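The nuclear-encoded genes of oxidative phosphorylation were examined in lung macrophages of tumor-bearing mice. The members were all genes of the table whose symbols begin with Nduf, Uqcr, Cox followed by a digit between 4 and 8, or Atp5, together with Sdha, Sdhb, Sdhc and Sdhd. This gave 88 of 14648 genes, of which 35 were assigned to complex I, 8 to the assembly of complex I, 4 to complex II, 8 to complex III, 17 to complex IV and 16 to complex V. Of the 88 members, 79 were counted as subunits. These leave out the assembly factors of complex I and the coupling factor Atp5s, and include Cox7a2l, a supercomplex factor. RNA-Seq had been performed on 3 macrophage populations sorted by flow cytometry from perfused lungs of C57BL/6 mice, all of which carried B16 melanoma given intravenously: CD11c+ interstitial macrophages (IM), CD11c- IM, and alveolar macrophages (AM). The cells were gated as MerTK+ CD64+ and separated by SiglecF and CD11c. Each population was taken from mice labelled Il9r-/-, deficient in the receptor for the cytokine IL-9, and from wild-type (WT) mice, giving 6 groups of 2 libraries and 12 libraries in all. The study used mice of both sexes that were 8 to 16 weeks old. The age, sex and number of mice behind each library are not given in the sources used here, so the p-values reflect only how much these libraries vary, and that variation may be technical.

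Oxidative phosphorylation takes place in the inner mitochondrial membrane. Complex I accepts electrons from NADH and complex II accepts them from succinate, which it oxidizes as a step of the tricarboxylic acid cycle. Complex III passes the electrons to cytochrome c, complex IV passes them on to oxygen, and the proton gradient built on the way drives ATP synthesis by complex V. Some subunits of complexes I, III, IV and V are encoded by mitochondrial DNA, and the table held no such gene, so only the nuclear side could be described. In macrophages this machinery is tied to the activation state: AM are known for lipid catabolism, and inflammatory activation turns cells toward glycolysis and leads to accumulation of succinate.

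Promoters of these genes are known to share binding sites for NRF1, for ETS factors such as GABP, and for YY1. RefSeq promoter windows on GRCm38 (mm10), running 250 bases before to 50 bases after the start, were found for 73 of the 88 members, 3 of them by a synonym. The letters of an NRF1 core (GCGCATGC, read on both strands) were present in 12 of the 73 windows (16.4%) and in 2.80% of 27025 promoters of all genes. The ETS letters CCGGAAG were present in 16 (21.9%), against 9.12% of all promoters, and the YY1 letters AAGATGGC in 10 (13.7%), against 2.88%. At least 1 of the 3 motifs was found in 33 windows (45.2%), against 13.8% of all promoters, and the median GC content was 58.3% in members and 52.7% in all promoters. Matches to different motifs overlapped in 0 of the 73 windows, and a match describes letters only. The 4 windows printed here belong to the 2 pairs of genes whose proportions differed most clearly between populations in the results that follow, Sdhb with Sdha and Cox6b2 with Cox6b1. They are written 5′ to 3′ on the strand of the gene, with motif letters in capitals. The Sdhb window (chr4:140961021-140961320, plus strand) holds an NRF1 core on the opposite strand 54 bases before the start and an ETS match 6 bases after it. The Sdha window (chr13:74350191-74350490, minus strand) and the Cox6b2 window (chr7:4753045-4753344, minus strand) hold none of the 3. The Cox6b1 window (chr7:30626065-30626364, minus strand) holds an ETS match on the opposite strand, 28 bases before the start.
Sdhb: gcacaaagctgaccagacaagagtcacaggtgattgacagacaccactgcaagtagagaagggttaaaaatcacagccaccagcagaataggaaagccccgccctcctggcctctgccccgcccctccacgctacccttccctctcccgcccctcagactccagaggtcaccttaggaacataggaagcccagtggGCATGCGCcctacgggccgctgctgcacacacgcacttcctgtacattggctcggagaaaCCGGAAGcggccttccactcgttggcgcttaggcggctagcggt
Sdha: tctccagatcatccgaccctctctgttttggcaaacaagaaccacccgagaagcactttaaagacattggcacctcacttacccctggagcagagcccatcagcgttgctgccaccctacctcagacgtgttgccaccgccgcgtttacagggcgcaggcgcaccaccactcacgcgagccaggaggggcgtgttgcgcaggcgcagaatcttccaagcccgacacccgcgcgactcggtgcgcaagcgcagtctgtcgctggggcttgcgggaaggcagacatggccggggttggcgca
Cox6b2: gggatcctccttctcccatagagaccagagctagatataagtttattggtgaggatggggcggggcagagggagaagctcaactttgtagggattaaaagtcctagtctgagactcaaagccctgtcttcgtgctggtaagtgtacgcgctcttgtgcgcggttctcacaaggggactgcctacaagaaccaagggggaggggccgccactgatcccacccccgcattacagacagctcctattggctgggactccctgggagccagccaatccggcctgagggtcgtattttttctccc
Cox6b1: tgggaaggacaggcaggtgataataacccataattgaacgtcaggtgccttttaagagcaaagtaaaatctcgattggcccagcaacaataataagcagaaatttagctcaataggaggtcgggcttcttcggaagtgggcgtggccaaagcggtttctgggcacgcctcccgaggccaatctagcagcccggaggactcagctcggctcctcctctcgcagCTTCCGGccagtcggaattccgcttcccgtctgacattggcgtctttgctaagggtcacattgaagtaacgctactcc

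Depth was 26988617 to 42020021 counts per library, and the members took 0.892 to 1.44% of the counts. Values of single libraries are CPM, counts scaled to the size of the library after TMM, which assumes that most genes do not change. Itgax, the gene of CD11c, was at 302 to 437 CPM in CD11c+ IM and 27.9 to 54.1 CPM in CD11c- IM, and Siglecf was at 10.8 to 65.1 CPM in the 8 IM libraries and 616 to 686 CPM in AM, as the gates require. Mertk was lower in the IM populations, at 59.8 to 204 CPM in CD11c+ IM, 20.6 to 100 CPM in CD11c- IM and 353 to 435 CPM in AM. Fcgr1, the gene of CD64, was at 63.5 to 159 CPM in CD11c+ IM, 58 to 101 CPM in CD11c- IM and 66 to 76.5 CPM in AM. Il9r did not follow the genotype labels: it was at 2.59 to 6.82 CPM in the 6 libraries labelled Il9r-/- and at 0.158 to 0.750 CPM in 5 of the 6 WT libraries, with 6.47 CPM in WT CD11c- IM replicate 2. A gene total cannot show which exons were read, and which exons the allele lacks is not given in the sources used here. Xist, which is expressed in females, had 12.5 to 27 CPM in 3 libraries, all of them WT and numbered 1, and no more than 0.0478 CPM in the other 9. Ddx3y, a gene of the Y chromosome, went the other way, at 0.105 to 0.257 CPM in those 3 libraries and 58.7 to 94.4 CPM in the other 9. By these genes the 3 libraries are female and the other 9 male. Within WT, number and sex thus cannot be told apart. Every comparison of genotypes sets a WT group of both sexes against a male group labelled Il9r-/-. Each count of calls was therefore also made without the 3 WT libraries numbered 1.

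Each complex was expressed at a similar level in the 3 populations. On the deposited log2 FPKM scale, which corrects for gene length, the mean over 12 libraries had a median of 6.39 for complex I, 7.35 for complex II, 7.54 for complex III, 7.11 for complex IV and 7.36 for complex V, against 3.32 for the assembly factors of complex I. The highest member was Atp5b at 9.51, which encodes the catalytic beta subunit of ATP synthase, followed by Cox4i1 at 8.88, the common form of subunit IV of cytochrome c oxidase. The lowest genes of complex IV were isoforms known for other tissues or for low oxygen: Cox6b2 (testis) at 3.34, Cox7a1 (striated muscle) at 2.47, Cox6a2 (striated muscle) at 1.40, Cox4i2 (lung and low oxygen) at -0.67 and Ndufa4l2 (low oxygen) at -1.96. Population medians differed by at most 0.37 log2 units in any complex, being 6.35 in CD11c+ IM, 6.43 in CD11c- IM and 6.41 in AM for complex I, and 7.30 in CD11c+ IM, 7.18 in CD11c- IM and 7.55 in AM for complex II.

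**Figure D1:**
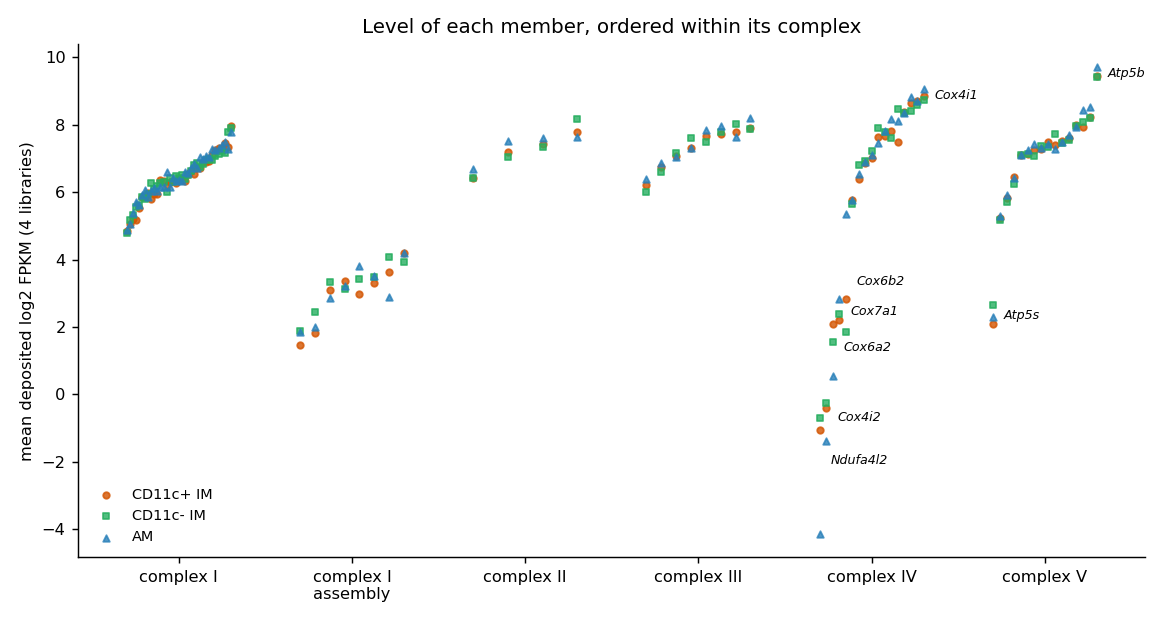
Mean deposited log2 FPKM of each of the 88 members (vertical axis) in CD11c+ IM, CD11c- IM and AM (4 libraries each, libraries labelled Il9r-/- and WT together), ordered by level within each complex (horizontal axis). The points of the 3 populations lie close together for most subunits, and Cox7a1, Cox6a2, Cox4i2 and Ndufa4l2 stand far below the other members of complex IV, as does Cox6b2 in both IM populations but not in AM, where it reached 5.35.

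The comparisons between populations asked which of these genes distinguish the IM populations from AM and from each other. A gene was called at a Benjamini-Hochberg adjusted p under 0.05 over all genes in edgeR's quasi-likelihood test, each difference is the mean over both genotypes, and log2 fold changes carry their standard error (SE). In CD11c- IM against AM, 8 of 88 members were called (9.09%), 4 higher and 4 lower, where 45.7% of all genes were called (27.9% higher and 17.8% lower). In CD11c+ IM against AM, 7 members were called (7.95%), 2 higher and 5 lower, where the figure for all genes was 26.6% (15.9% higher and 10.7% lower). In CD11c+ IM against CD11c- IM, 2 members were called (2.27%), 1 higher and 1 lower, against 12.7% of all genes (4.98% higher and 7.71% lower). The median log2 fold change of the members was -0.04 in CD11c- IM against AM, -0.08 in CD11c+ IM against AM and -0.01 in CD11c+ IM against CD11c- IM, while the median of all genes was 0.12 in CD11c- IM against AM, 0.03 in CD11c+ IM against AM and -0.05 in CD11c+ IM against CD11c- IM. Each pair of these comparisons shares 4 libraries. DESeq2's Wald test called more members: 14 in CD11c- IM against AM, where Atp5a1, Atp5o, Cox5a, Cox5b, Cox6b1 and Ndufb11 were added, 9 in CD11c+ IM against AM, where Atp5a1 and Cox6a2 were added, and 6 between the IM populations, where Ndufaf1, Ndufaf7, Ndufb9 and Ndufs1 were added. Unless DESeq2 is named, calls are those of edgeR.

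The spread of the members was narrow beside that of all genes, many of which have few counts, and much like that of ribosome genes. In CD11c- IM against AM, the 10th to 90th percentile of the log2 fold changes ran between -0.33 and 0.47 for members and between -0.93 and 4.56 for all genes, while mitochondrial ribosome genes ran between -0.47 and 0.25 and cytosolic ribosome genes between -0.41 and 0.42. In CD11c+ IM against AM it was -0.32 to 0.17 for members and -0.82 to 2.91 for all genes, and between the IM populations it was -0.40 to 0.19 for members and -2.19 to 0.59 for all genes. All libraries of the first population lay above or below all of the second for 5 members above and 7 below in CD11c- IM against AM (27.4% and 20% of all genes), for 3 above and 12 below in CD11c+ IM against AM (17.7% and 16.8%), and for 1 above and 4 below in CD11c+ IM against CD11c- IM (7.93% and 12.1%). A change under 0.5 log2 units in size was seen for 79, 79 and 84 of the 88 members in these comparisons. The members are abundant, and their SE had a median of 0.17 log2 units. The number of calls depended on scaling and on single libraries. With library totals alone, without TMM, 24 members were called in CD11c- IM against AM, 22 higher and 2 lower, and the median moved to 0.42 for all genes and to 0.26 for the members. Leaving out WT CD11c- IM replicate 1 gave 17 calls in the same comparison (2 higher and 15 lower), and leaving out WT CD11c- IM replicate 2 gave 13 (11 higher and 2 lower), while leaving out any 1 AM library gave 4. Without the 3 WT libraries numbered 1 the calls numbered 5 in CD11c- IM against AM, 1 in CD11c+ IM against AM and 0 between the IM populations. With genotype and library number together as a block, the calls numbered 14 in CD11c- IM against AM (7 higher and 7 lower). In the same fit they numbered 8 in CD11c+ IM against AM and 4 between the IM populations (1 higher and 3 lower).

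**Figure D2:**
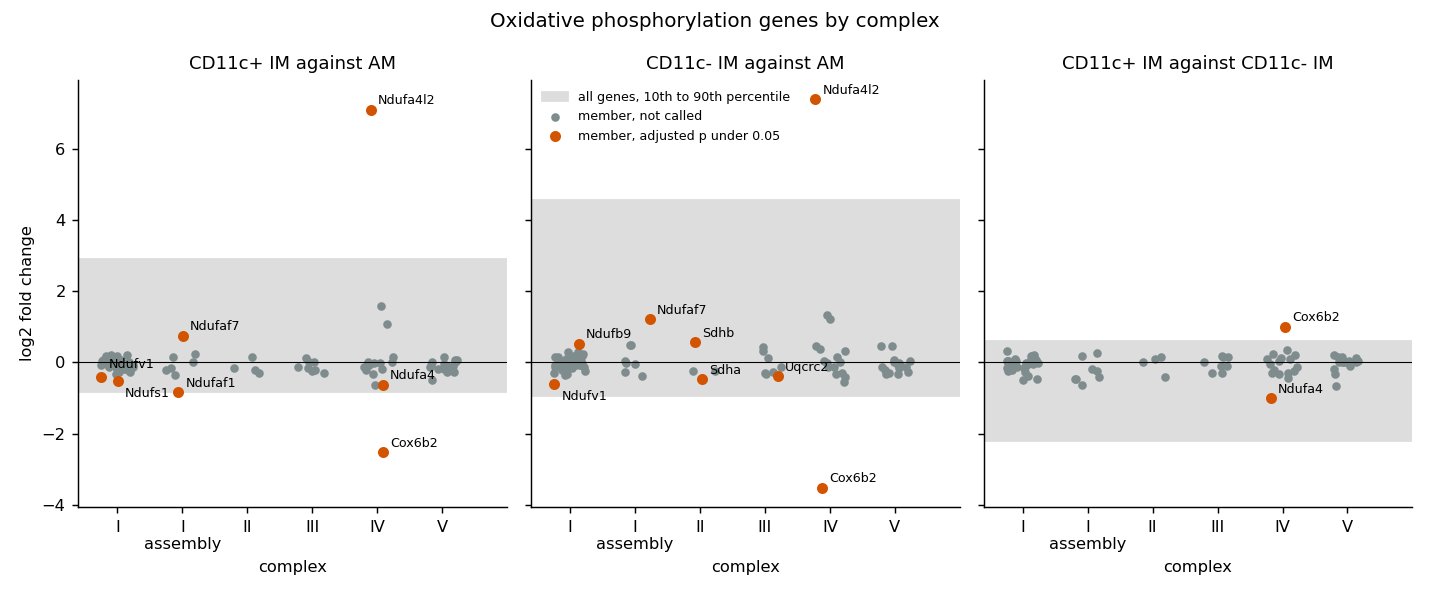
Log2 fold change (vertical axis) of each of the 88 members by complex (horizontal axis) in CD11c+ IM against AM, CD11c- IM against AM, and CD11c+ IM against CD11c- IM, with members called at an adjusted p under 0.05 in orange and the 10th to 90th percentile of all genes as a grey band. Most members sit near 0 inside the band, Cox6b2 lies outside it in all 3 panels, and Ndufa4l2 lies above it in both panels against AM.

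Of the 35 genes of complex I, 2 were called in CD11c- IM against AM and 2 in CD11c+ IM against AM, and the 1 gene in common was Ndufv1, which encodes the flavoprotein subunit that takes electrons from NADH. Ndufv1 (chr19:4007499-4012755 of mm10, like all gene positions here, minus strand) was at 134 and 110 CPM in the libraries labelled Il9r-/- and 120.3 and 109 CPM in the WT libraries of CD11c+ IM. In CD11c- IM it was at 98.5 and 96.2 CPM in the libraries labelled Il9r-/- and 120.1 and 96.6 CPM in WT, and in AM it was at 151 and 164 CPM in the libraries labelled Il9r-/- and 157 and 155.5 CPM in WT. All 4 AM libraries lay above all 8 IM libraries. The log2 fold change was -0.61 (SE 0.12, adjusted p = 0.00278) in CD11c- IM against AM and -0.41 (SE 0.12, adjusted p = 0.0314) in CD11c+ IM against AM. The call in CD11c- IM held in each of 22 alternatives, with adjusted p up to 0.0445. The call in CD11c+ IM was lost in 10 of 22, among them when any AM library, either WT CD11c+ IM library or CD11c+ IM replicate 2 labelled Il9r-/- was left out (log2 fold change -0.44 to -0.34, adjusted p = 0.0607 to 0.132).

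Ndufs1, the largest iron-sulfur subunit of complex I, was lower in CD11c+ IM than in AM, with a log2 fold change of -0.51 (SE 0.12 and adjusted p = 0.0118). It was at 112 and 97.6 CPM in the libraries labelled Il9r-/- and 113 and 103 CPM in the WT libraries of CD11c+ IM, against 147 to 155 CPM in AM, so the groups did not overlap. In CD11c- IM it spread between 125 and 164 CPM across the AM values. The call was lost without WT AM replicate 2, WT CD11c+ IM replicate 2 or AM replicate 2 labelled Il9r-/- (adjusted p = 0.0504 to 0.0613). Ndufb9, an accessory subunit of the membrane arm, was higher in CD11c- IM, at 155 and 129 CPM (labelled Il9r-/-) and 182 and 114 CPM (WT), against 97.4 to 103 CPM in AM. Its log2 fold change was 0.52 (SE 0.16, adjusted p = 0.0242). This call was lost without any 1 of the AM libraries or either CD11c- IM library numbered 1 (0.33 to 0.54 log2 units, adjusted p = 0.056 to 0.0784). The core subunits Ndufs7, Ndufs8 and Ndufv2, also on the list chosen by role, were not called in any of the 3 comparisons by either tool, with log2 fold changes between -0.31 and 0.14.

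The catalytic subunits of complex II were called in opposite directions in CD11c- IM against AM. Sdha (chr13:74322255-74350240, minus strand) encodes the flavoprotein that oxidizes succinate, and Sdhb (chr4:140961271-140979192, plus strand) encodes the iron-sulfur protein that takes its electrons. In CD11c- IM, Sdha was at 393 and 338 CPM in the libraries labelled Il9r-/- and 449 and 329 CPM in WT, against 495 to 545 CPM in AM, with no overlap. Sdhb was at 341 and 261 CPM in the CD11c- IM libraries labelled Il9r-/- and 430 and 233 CPM in WT, against 201 to 228 CPM in AM, again with no overlap but in the other direction. The log2 fold change was -0.47 (SE 0.14, adjusted p = 0.0254) for Sdha and 0.56 (SE 0.21, adjusted p = 0.0497) for Sdhb.

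Both calls depended on single libraries. The Sdhb call was lost when any 1 of the libraries other than both CD11c- IM libraries numbered 2 was left out (0.31 to 0.58 log2 units, adjusted p = 0.0532 to 0.153). The Sdha call was lost without any 1 of the AM libraries or either CD11c- IM library numbered 2 (adjusted p = 0.0536 to 0.0833), and its adjusted p was 0.32 with library totals alone. The difference of their log2 FPKM within a library, which any scaling of the library leaves as it is, was 0.47 to 0.86 in CD11c+ IM, 0.92 to 1.35 in CD11c- IM and 0.04 to 0.30 in AM. The ranges of the 3 populations did not overlap, with 4 libraries each. The pair was singled out after its values were seen, so no test is given. In CD11c+ IM against AM the genes were not called, at -0.31 (SE 0.14, adjusted p = 0.148) for Sdha and 0.16 (SE 0.20, adjusted p = 0.613) for Sdhb. The membrane anchors Sdhc and Sdhd were not called either, and their log2 ratio was -1.06 to -0.87 in CD11c+ IM, -1.10 to -0.76 in CD11c- IM and -1.04 to -0.77 in AM, with all 3 ranges overlapping.

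Complexes III and V gave 1 call between them. The 1 call among the 8 genes of complex III was Uqcrc2, a core protein of the matrix side, which was at 120.4 and 119 CPM (labelled Il9r-/-) and 136 and 111 CPM (WT) in CD11c- IM, against 153 to 167 CPM in AM. Its log2 fold change was -0.39 (SE 0.11, adjusted p = 0.0207). The call was lost without any 1 of the AM libraries or WT CD11c- IM replicate 2 (adjusted p = 0.0538 to 0.0649). Uqcrc1, the partner core protein, was not called at -0.32 (SE 0.14, adjusted p = 0.0966), and Uqcrfs1, the Rieske iron-sulfur protein, was not called at -0.27 (SE 0.12, adjusted p = 0.0857).

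None of the 16 genes of complex V was called in any of the 3 comparisons by edgeR. At an unadjusted p under 0.05 edgeR had 2 in CD11c- IM against AM, 1 in CD11c+ IM against AM and 0 between the IM populations. The Wald test of DESeq2 called 2 in CD11c- IM against AM (Atp5a1 and Atp5o), 1 in CD11c+ IM against AM (Atp5a1) and 0 between the IM populations. The range of log2 fold changes in CD11c- IM against AM was -0.33 to 0.47. Atp5b was at 1098 to 1467 CPM in CD11c+ IM, 1050 to 1608 CPM in CD11c- IM and 1463 to 1668 CPM in AM. Atp5a1, the alpha subunit, was at -0.32 (SE 0.13, adjusted p = 0.0678) in CD11c- IM against AM, and Atp5o, a subunit of the stalk, was at 0.47 (SE 0.19, adjusted p = 0.0763). The c-ring of the rotor is encoded by Atp5g1, Atp5g2 and Atp5g3, whose mature proteins are the same. Atp5g1 made up 36.6 to 40.9% of the summed FPKM of Atp5g1 and Atp5g3 in CD11c+ IM, against 31.5 to 34.5% in CD11c- IM and 33.2 to 33.8% in AM, so CD11c+ IM stood above both without overlap, a pair chosen after its values were seen. Neither gene was called, with Atp5g3 at -0.49 (SE 0.20, adjusted p = 0.109) in CD11c+ IM against AM.

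Complex IV held the members that differed most. Ndufa4 (chr6:11900373-11907446, minus strand), named for complex I but a subunit of cytochrome c oxidase, was low in CD11c+ IM. It was at 96.4 and 80.2 CPM in the libraries labelled Il9r-/- and 99.2 and 78.7 CPM in the WT libraries of CD11c+ IM. In CD11c- IM it was at 207 and 145 CPM (labelled Il9r-/-) and 234 and 128 CPM (WT), and in AM at 153 and 138 CPM (labelled Il9r-/-) and 130 and 128 CPM (WT). All 4 CD11c+ IM libraries lay below all 8 others. The log2 fold change was -1.01 (SE 0.21, adjusted p = 0.0158) in CD11c+ IM against CD11c- IM, and it was -0.996 between the libraries labelled Il9r-/- and -1.02 between the WT libraries. Against AM it was -0.63 (SE 0.20, adjusted p = 0.0487), while CD11c- IM did not differ from AM past the threshold (0.38, SE 0.20, adjusted p = 0.151). The call against CD11c- IM was lost in 4 of 22 alternatives, including without WT CD11c+ IM replicate 2 (log2 fold change -0.90, adjusted p = 0.0664), and adjusted p ranged between 8.1e-05 and 0.132. The call against AM was lost when any 1 of the 8 CD11c+ IM and AM libraries was left out (-0.72 to -0.53, adjusted p = 0.0637 to 0.168).

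Cox6b2 (chr7:4751792-4753094, minus strand) encodes an isoform of subunit VIb, which lies where the monomers of complex IV meet, and is known for expression in testis. It was at 6.45 and 4.14 CPM (labelled Il9r-/-) and 3.45 and 3.85 CPM (WT) in CD11c+ IM, and at 2.79 and 2.24 CPM (labelled Il9r-/-) and 1.41 and 2.41 CPM (WT) in CD11c- IM. In AM it was at 28.1 and 24.6 CPM in the libraries labelled Il9r-/- and 21.8 and 26.3 CPM in WT. The 3 populations did not overlap, and these values rest on 66 to 220 counts in each IM library and 728 to 1076 in each AM library. Cox6b2 was 11.5-fold lower in CD11c- IM than in AM (log2 fold change -3.52, SE 0.26, adjusted p = 2.3e-05) and 5.73-fold lower in CD11c+ IM (-2.52, SE 0.25, adjusted p = 0.000165), and these calls held in all 22 alternatives. In CD11c+ IM against CD11c- IM it was 1.00 log2 unit higher (SE 0.24, adjusted p = 0.0288). That call was lost in 11 of 22 alternatives, among them when any 1 of 6 of the 8 IM libraries was left out, the exceptions being CD11c+ IM replicate 2 labelled Il9r-/- and WT CD11c- IM replicate 2 (0.83 to 1.08 log2 units, adjusted p = 0.0565 to 0.0806).

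The ubiquitous form Cox6b1 (chr7:30616974-30626151, minus strand) was not called in any comparison by edgeR, at -0.41 (SE 0.16, adjusted p = 0.0606) in CD11c- IM against AM, where DESeq2 called it. Cox6b2 made up 1.16 to 2.42% of the summed FPKM of the pair in CD11c+ IM, 0.567 to 1.39% in CD11c- IM and 7.65 to 9.47% in AM, so the testis form remained the minor form even where it was highest. Marker genes of AM were also higher in CD11c+ IM than in CD11c- IM, as given with the other markers. The part of AM cells in the Cox6b2 values of the IM populations was not tested.

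**Figure D3:**
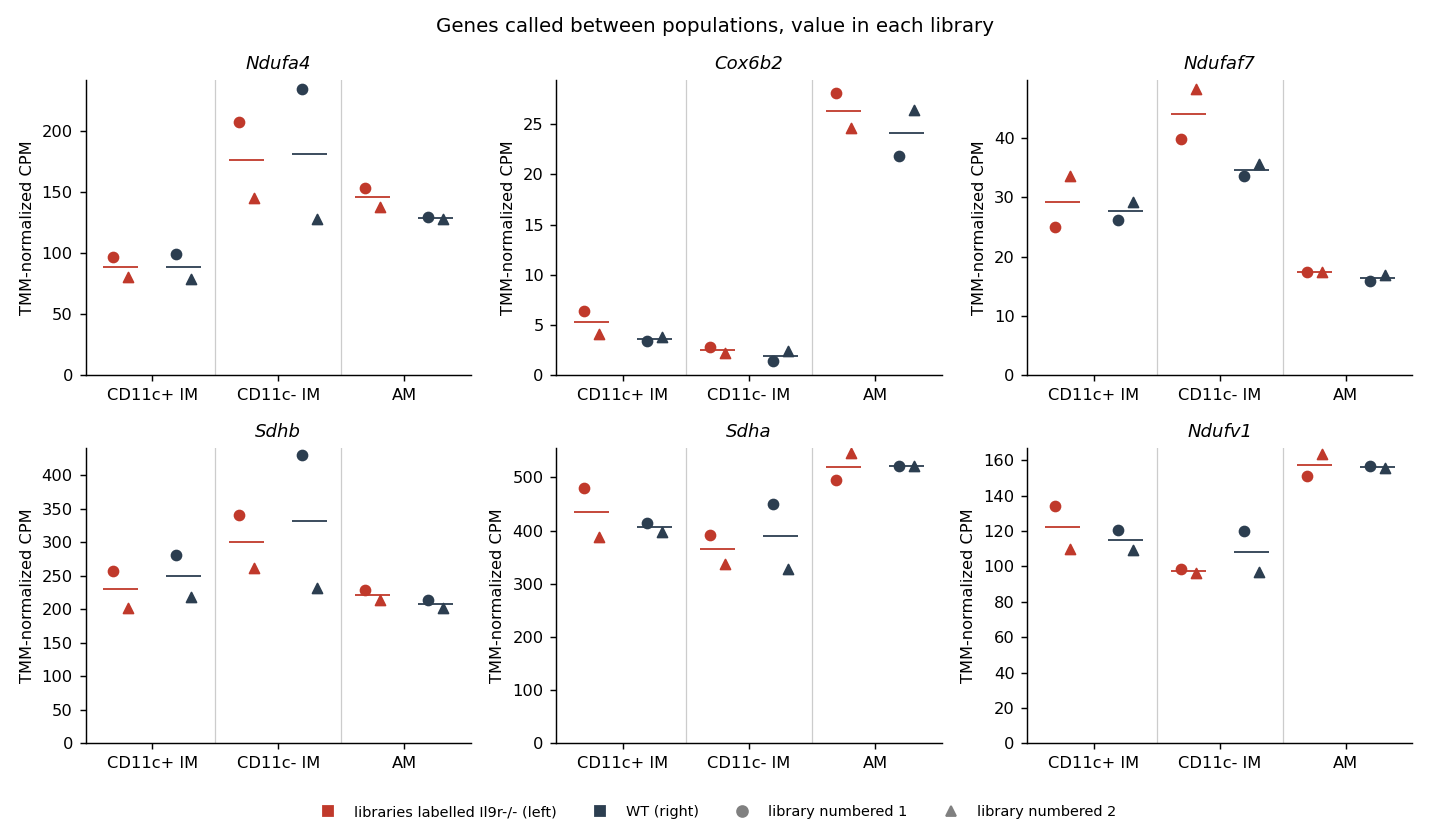
TMM-normalized CPM (vertical axes, starting at 0) of Ndufa4, Cox6b2, Ndufaf7, Sdhb, Sdha and Ndufv1 in each of the 12 libraries by population (horizontal axis), with libraries labelled Il9r-/- in red left of WT in blue, circles for libraries numbered 1, triangles for those numbered 2 and lines for group means. Ndufa4 is lowest in CD11c+ IM, Cox6b2 is highest in AM, and Ndufaf7 is lowest in AM.

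Ndufa4l2, a paralog of Ndufa4 that is known to be induced at low oxygen, had no read in any of the 4 AM libraries. It had 3 and 15 counts in the libraries labelled Il9r-/- and 44 and 14 counts in the WT libraries of CD11c+ IM, and 19 and 42 counts (labelled Il9r-/-) and 24 and 14 counts (WT) in CD11c- IM. With the IM counts taken as they stand and a floor of 3 counts over the AM group, this is at least 25.1-fold higher in CD11c+ IM and at least 25.9-fold higher in CD11c- IM (adjusted p = 0.00728 and 0.00334, edgeR). With the counting error of the IM counts included, the exact 95% lower limit was 19.9-fold in CD11c+ IM and 20.7-fold in CD11c- IM. WT CD11c+ IM replicate 1 held 44 of the 76 counts of its population, and without it the first bound was 14.7-fold. The call in CD11c+ IM was lost without the 3 WT libraries numbered 1 (adjusted p = 0.0817) and in the libraries labelled Il9r-/- alone (adjusted p = 0.0738). Ndufa4l2 nevertheless amounted to no more than 0.620% of the summed FPKM of Ndufa4 and Ndufa4l2 in any library. The other tissue-restricted isoforms were low and not called by edgeR: Cox6a2 was at 1.58 to 3.69 CPM in CD11c+ IM, 0.694 to 4.63 CPM in CD11c- IM and 0.443 to 1.42 CPM in AM (1.57 log2 units in CD11c+ IM against AM, SE 0.63, adjusted p = 0.0991, called by DESeq2), and Cox4i2 had 3 to 77 counts per library over all populations. Cox6a2 lies on the opposite strand to Itgad over 10.5% of its exons, and the counting could not tell such reads apart. Of the nuclear subunits that surround the mitochondrially encoded core of complex IV, Cox5a was at -0.54 (SE 0.21, adjusted p = 0.0648) and Cox5b at 0.47 (SE 0.18, adjusted p = 0.0589) in CD11c- IM against AM, and Cox4i1 was at -0.31 (SE 0.17, adjusted p = 0.156). None of these passed the threshold in edgeR, while DESeq2 called Cox5a and Cox5b.

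Among the 8 assembly factors of complex I, Ndufaf7 and Ndufaf1 were called. Ndufaf7 (chr17:78937135-78948052, plus strand), a methyltransferase that acts early in assembly, was at 25.03 and 33.5 CPM (labelled Il9r-/-) and 26.2 and 29.2 CPM (WT) in CD11c+ IM. It was at 39.8 and 48.2 CPM (labelled Il9r-/-) and 33.6 and 35.6 CPM (WT) in CD11c- IM, against 15.98 to 17.4 CPM in AM. The populations did not overlap, although the highest CD11c+ IM library lay just below the lowest CD11c- IM library. The log2 fold change was 1.205 (SE 0.14, adjusted p = 0.00018) in CD11c- IM against AM, a call kept in all 22 alternatives, and 0.75 (SE 0.14, adjusted p = 0.0039) in CD11c+ IM against AM, lost in 1 of 22. Between the IM populations Ndufaf7 was at -0.45 (SE 0.14, adjusted p = 0.0613). With genotype and library number together as a block the adjusted p was 0.0474 in edgeR, and DESeq2 called it. Ndufaf1, a chaperone of the membrane arm, was lower in CD11c+ IM, at 12.3 and 9.96 CPM (labelled Il9r-/-) and 11.3 and 12.0 CPM (WT), against 19.3 to 20.9 CPM in AM (log2 fold change -0.83, SE 0.17, adjusted p = 0.0074, lost in 2 of 22 alternatives). In CD11c- IM Ndufaf1 was at 12.4 to 20.4 CPM and was not called against AM (-0.37, SE 0.17, adjusted p = 0.107).

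Genes of the same pathway outside the symbol rule were described by lists chosen by function, and their counts stand beside 45.7% of all genes called in CD11c- IM against AM and 26.6% in CD11c+ IM against AM. Of 40 other assembly factors and electron carriers, 4 were higher and 3 lower in CD11c- IM against AM (17.5% called), and 1 was higher and 2 were lower in CD11c+ IM against AM (7.5%). Sdhaf1, which handles the iron-sulfur clusters of Sdhb, was called in both, at 0.60 in CD11c- IM and 0.97 in CD11c+ IM. So was Sdhaf2, which helps attach the flavin to Sdha, at -0.73 in CD11c- IM and -0.39 in CD11c+ IM. Sdhaf3 and Sdhaf4, also complex II assembly factors, were not called in either. Sdhaf3 was at 0.52 in CD11c- IM and -0.35 in CD11c+ IM, and Sdhaf4 at -0.01 in CD11c- IM and -0.11 in CD11c+ IM. Of 16 genes of the tricarboxylic acid cycle, 1 was higher and 5 were lower in CD11c- IM (37.5% called), and 0 were higher and 4 lower in CD11c+ IM (25%), against AM; Ogdh, a subunit of the 2-oxoglutarate dehydrogenase complex, was at -0.67 and -0.57 and Pdhb, of pyruvate dehydrogenase, at -0.31 and -0.38. Of 16 regulators of mitochondrial biogenesis, 5 were higher and 4 lower in CD11c- IM against AM (56.2% called), and 0 were higher and 2 lower in CD11c+ IM against AM (12.5%). This list alone was above the share of all genes, and only in CD11c- IM. With 16 genes a margin of this size is not read as a result about the list. The regulators lower in both were Esrra (-1.08 in CD11c- IM and -0.86 in CD11c+ IM), a nuclear receptor that drives oxidative phosphorylation genes, and its coactivator Ppargc1b (-1.67 and -0.83). Of 77 mitochondrial ribosome genes, 3 were higher and 13 lower in CD11c- IM (20.8% called) and 2 higher and 5 lower in CD11c+ IM (9.09%), against AM. Between CD11c+ IM and CD11c- IM these lists gave 0 to 2 calls each.

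Markers of other cells moved with the populations. The summed CPM of 8 melanocyte genes, which B16 cells express, was 68.2 to 838 in CD11c+ IM, 3500 to 9330 in CD11c- IM and 85.8 to 351 in AM, and 7 of the 8 were called higher in CD11c- IM than in AM. Lung epithelial genes summed to 81.7 to 279 CPM in CD11c+ IM, 635 to 6950 CPM in CD11c- IM and 110 to 204 CPM in AM (7 of 8 higher in CD11c- IM), and 6 of 8 fibroblast and smooth muscle genes were called higher in CD11c- IM, where they summed to 571 to 896 CPM, against 13.7 to 17.6 CPM in AM. The striated muscle genes, of the tissue that expresses Cox6a2 and Cox7a1, summed to 21.4 to 55.9 CPM in CD11c+ IM, 24.9 to 39.9 CPM in CD11c- IM and 25.7 to 49.1 CPM in AM, with overlap between all 3 populations. In CD11c+ IM other markers moved against AM: 6 of 6 dendritic cell genes were called higher, at a sum of 421 to 1910 CPM in CD11c+ IM and 15.3 to 45.8 CPM in AM, as were 6 of 7 T and NK cell genes (102 to 196 CPM in CD11c+ IM and 9.62 to 19.9 CPM in AM), 4 of 4 B cell genes (98.8 to 470 CPM in CD11c+ IM and 21.7 to 49 CPM in AM), 3 of 4 neutrophil genes (143 to 1430 CPM in CD11c+ IM and 40.9 to 139 CPM in AM) and 5 of 8 endothelial genes (73.1 to 179 CPM in CD11c+ IM and 46.9 to 70.4 CPM in AM). The T and NK cell, B cell and neutrophil genes were called higher in CD11c- IM than in AM as well, 7 of 7, 4 of 4 and 4 of 4. There 7 of 8 endothelial genes were called higher and 1 lower, at a sum of 62.1 to 344 CPM in CD11c- IM. Of 6 dendritic cell genes, 4 were called higher and 1 lower, at a sum of 173 to 811 CPM in CD11c- IM. Between the IM populations, 7 of 8 alveolar macrophage genes were called higher in CD11c+ IM than in CD11c- IM. They summed to 3770 to 15900 CPM in CD11c+ IM, 1190 to 2900 CPM in CD11c- IM and 31700 to 42800 CPM in AM. The part of all these cells in the differences of both IM populations, from AM and from each other, was not tested. In bulk libraries fewer cells of a type and less RNA per cell cannot be told apart.

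The members differed between the libraries of a group in a shared way. In all 6 groups the library numbered 1 had the higher subunits: the median log2 difference of the 79 subunits, number 1 minus number 2, was 0.32 in CD11c+ IM labelled Il9r-/-, 0.30 in WT CD11c+ IM, 0.21 in CD11c- IM labelled Il9r-/-, 0.58 in WT CD11c- IM, 0.14 in AM labelled Il9r-/- and 0.07 in WT AM. The number of subunits that were higher in the library numbered 1 lay between 61 and 77 of 79. In WT CD11c- IM the summed subunits were at 12720 CPM in the library numbered 1 and 8540 CPM in that numbered 2. Mitochondrial ribosome genes followed in 6 of 6 groups, cytosolic ribosome genes in 4 of 6 and short abundant genes outside the rule in 5 of 6, while the median over all genes differed by -0.03 to 0.06. What the number stands for is not given in the sources used here. Markers of cell types also differed with the number in CD11c- IM, those of the macrophages among them. Melanocyte genes summed to 9330 CPM in WT number 1 and 3610 in number 2, and to 7800 and 3500 CPM with the label Il9r-/-. Interstitial macrophage genes moved in the same direction, at 20200 and 6870 CPM in WT and 19500 and 8440 CPM with the label Il9r-/-. Neutrophil genes went the other way, at 240 and 2150 CPM in WT and 1890 and 4800 CPM with the label Il9r-/-. So did B cell genes, at 198 and 1450 CPM in WT and 179 and 863 CPM with the label Il9r-/-. The part of cell content in the shared shift was not tested. By the likeness rule, the genes outside the lists whose log2 CPM followed the summed subunits most closely over 12 libraries were Nme1 (Pearson r = 0.973), Txn2 (0.967), Sep15 (0.965), Timm13 (0.955) and 2610001J05Rik (0.955). These are descriptions over libraries that share groups, with no test.

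**Figure D4:**
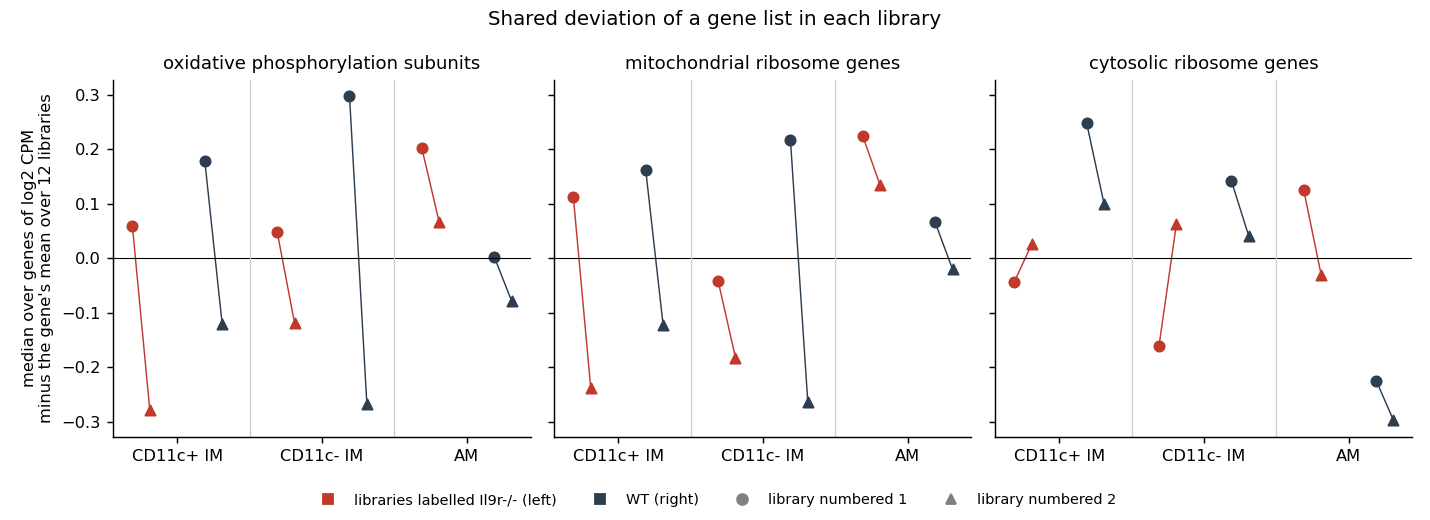
Median over genes of the log2 CPM minus the mean of each gene over 12 libraries (vertical axis), by population (horizontal axis), for oxidative phosphorylation subunits, mitochondrial ribosome genes and cytosolic ribosome genes. Lines join the libraries of a group numbered 1 (circles) and 2 (triangles), red for libraries labelled Il9r-/- and blue for WT, and the circle of the subunits lies above the triangle in all 6 groups.

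The comparison of genotypes asked whether loss of the IL-9 receptor changed these genes within a population, and since Il9r goes against the labels, its directions are those of the labels. No member was called in libraries labelled Il9r-/- against WT in CD11c+ IM, where 0.00683% of all genes were called, in CD11c- IM, where 0% were, in AM, where 0.0205% were, or over the 3 populations together, where 0.0273% were. By edgeR 0 members had an unadjusted p under 0.05 in any of these comparisons, and DESeq2 called 0 as well. The genotype difference in either IM population minus that in AM gave 0 calls, with 0% of all genes called. The SE of a member had a median of 0.24 log2 units, and a gene that was not called may still differ. The lowest p in AM belonged to Ndufb4 at 0.54 (SE 0.30), Cox7c at 0.47 (SE 0.32) and Ndufb11 at 0.26 (SE 0.18), accessory subunits of complexes I and IV. In CD11c+ IM they belonged to Atp5k, a subunit of the membrane part of ATP synthase, at -0.44 (SE 0.27), Cox6b2 at 0.54 (SE 0.34) and Ndufa4l2 at -1.76 (SE 1.16). In CD11c- IM they belonged to Cox4i2 at 2.11 (SE 1.06), Ndufaf7 at 0.35 (SE 0.19) and Atp5sl, named for ATP synthase but an assembly factor of complex I, at -0.42 (SE 0.33). Over the 3 populations they were Cox6b2 at 0.35 (SE 0.19), Ndufaf7 at 0.17 (SE 0.11) and Cox4i2 at 0.75 (SE 0.61). For the genotype difference in CD11c+ IM minus that in AM they were Atp5e, the epsilon subunit of ATP synthase, at -0.55 (SE 0.32), Cox7a2, the common form of subunit VIIa, at -0.62 (SE 0.36) and Cox7c at -0.77 (SE 0.45), and for that in CD11c- IM minus that in AM they were Cox4i2 at 2.96 (SE 1.5), Ndufs3, a core subunit of complex I, at -0.41 (SE 0.30) and Uqcr10, a small subunit of complex III, at -0.53 (SE 0.40). The adjusted p in edgeR was 0.981 for Cox6b2 over the 3 populations and 1 for each of the others, and the values of Ndufa4l2 and Cox4i2 rest on few counts.

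On the TMM scale and over all 12 libraries the members as a list leaned in opposite directions in AM and in the IM populations. The ribosome genes and the short abundant genes did so too. On a scale set by cytosolic ribosome genes the directions are the other way round. In AM, 84 of 88 members were higher in the libraries labelled Il9r-/-, with a median of 0.16 log2 units, and 56 were higher in both libraries labelled Il9r-/- than in both WT libraries, where 22.2% of all genes were. The median was 0.29 for cytosolic ribosome genes, 0.17 for mitochondrial ribosome genes and 0.18 for short abundant genes in the same comparison. No member was lower in both libraries labelled Il9r-/- than in both WT libraries of AM, where 22.4% of all genes were. In CD11c+ IM the median was -0.12 with 12 of 88 members positive, and the libraries did not overlap for 3 higher members (12.9% of all genes) and 9 lower ones (12.5%). In CD11c- IM the median was -0.06 with 17 of 88 positive, and they did not overlap for 2 higher members (9.88% of all genes) and 0 lower ones (7.63%). The medians for cytosolic ribosome genes were -0.17 in CD11c+ IM and -0.13 in CD11c- IM, and those for short abundant genes were -0.10 in CD11c+ IM and -0.03 in CD11c- IM. Another scale shifts all genes of a comparison by 1 constant. With cytosolic ribosome genes at 0 the median of the members would be 0.05 in CD11c+ IM, 0.07 in CD11c- IM and -0.13 in AM, and with short abundant genes at 0 it would be -0.02 in CD11c+ IM, -0.03 in CD11c- IM and -0.03 in AM, so the direction of the list rests on the scale. The genotype difference in CD11c+ IM minus that in AM had a median of -0.27, and that in CD11c- IM minus that in AM a median of -0.23, and on the scale of cytosolic ribosome genes both are 0.21. Leaving out 1 library left the AM median between 0.105 and 0.235. The median in CD11c+ IM was 0.04 without WT replicate 1 of that population and 0.05 without replicate 2 labelled Il9r-/-, and the median in CD11c- IM was 0.26 without WT replicate 1 and -0.33 without WT replicate 2. Without the 3 WT libraries numbered 1, only male libraries were compared, with 1 WT library in each population. The medians were then 0.04 in CD11c+ IM, 0.26 in CD11c- IM and 0.19 in AM, so the opposite lean was not seen. The parts of sex and library number were not tested. The subunits of the libraries numbered 1 and 2 of WT CD11c- IM differed by 0.58, which is larger than each of these medians.

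**Figure D5:**
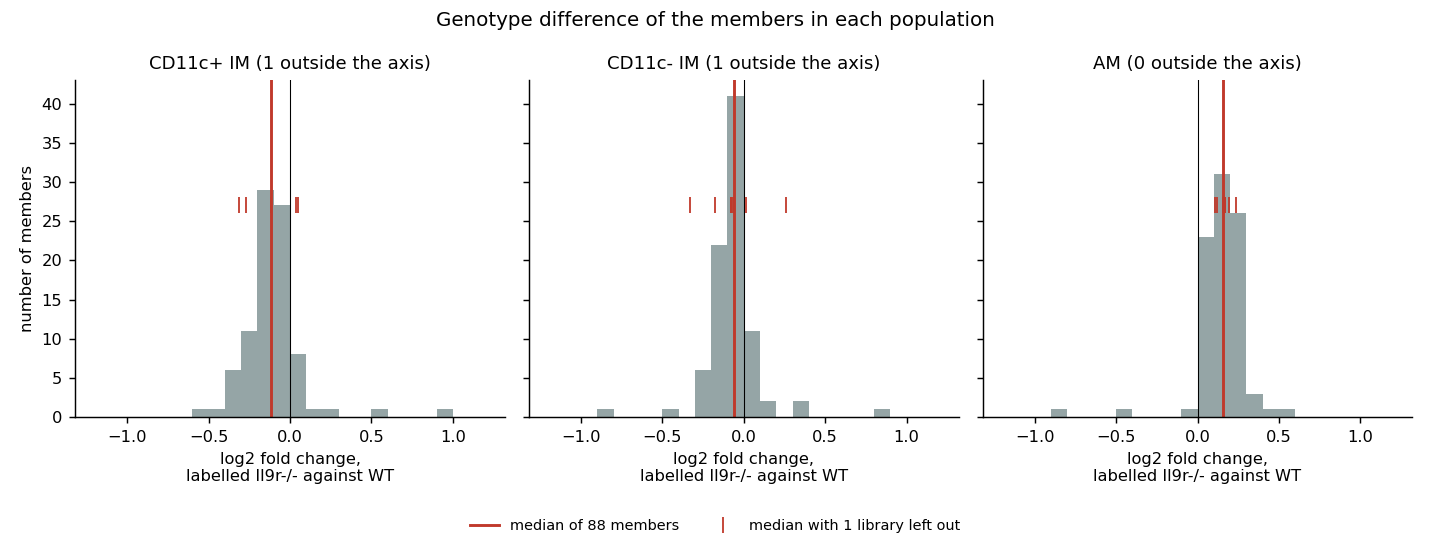
Number of members (vertical axis) by log2 fold change of libraries labelled Il9r-/- against WT (horizontal axis) in CD11c+ IM, CD11c- IM and AM. The thick red line is the median of the 88 members and the short red marks are the median with 1 library left out, which lie on both sides of 0 in CD11c+ IM and CD11c- IM and above 0 in AM.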

How the data were processed

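RNA-Seq libraries of 12 samples were prepared with SMART-Seq v4 from 1 ng of total RNA (RNA integrity number of 7 or higher). The submitters' notes and the study's methods state that the authors aligned the reads with STAR 2.5 (mm10) and used featureCounts (Subread 1.5.1) to assign unique alignments to refGene. The kit does not mark strand although a strand setting is stated, so a gene and its antisense neighbour cannot be told apart where they overlap. Of the members, 8 overlap another gene's exons, 4 of them over more than 10% of their length. The authors removed genes of low CPM and deposited raw counts, log2 FPKM values and their own comparisons, whose columns of fold changes, p-values and false discovery rates were not used. Each sample column was matched by name, and 0 were left over.

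Counts were fitted with edgeR 4.0.16 in R 4.3.3 (TMM, robust quasi-likelihood, 6 groups, 6 residual degrees of freedom) over all 14648 genes, each of which reached a CPM of 0.5 in 2 or more libraries, and adjusted by Benjamini-Hochberg. The common biological coefficient of variation was 0.382. SE is the size of the log2 fold change over the square root of F. The deposited log2 FPKM, which the authors had scaled by TMM, served for levels and ratios only. Bounds used 3 counts as the floor of an empty group and, like counts, cover counting error only. The procedure was tested on simulated data, in which 100 of 14648 genes were changed by 1 log2 unit and 100 by 0.5 in each comparison. It missed most of the changes placed between CD11c- IM and AM and all of those placed between genotypes in AM. In the real data 45.7% of all genes were called in CD11c- IM against AM, which makes the adjusted threshold less strict. The share missed in the simulation therefore does not carry over to that comparison. A gene that was not called may still differ. Promoter sequences are from RefSeq on GRCm38, and gene positions are those of the deposited table (mm10). limma 3.58.1, DESeq2 1.42.0, Python 3.11.15, pandas 2.3.3 and matplotlib 3.10.9 were also used. Depth was 26988617 to 42020021 counts per library.

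Named were the catalytic or core subunits and the isoform genes (apart from a gene that is not reported here), the members called in each comparison (10 at most), and the 3 with the lowest p where fewer than 3 were called. The members and all lists were chosen with earlier results of these data known. Alternatives were other scalings, filters, samples and tools, a replicate block and each library left out. Libraries of a genotype with the same number deviated together in the 3 populations (r = 0.158 to 0.736 between deviations from group means). The numbers were therefore taken to pair libraries between populations of a genotype. The main fit did not use this pairing, and the replicate block for the population comparisons did. Between genotypes r was 0.05 to 0.677. These ranges overlap, so the correlations do not decide whether the numbers also pair libraries between genotypes, and such a pairing was not assumed.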

Additional observations from a re-analysis of the deposited data

How the results depend on the processing

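No called result reversed its direction among the 2256 combinations of result and alternative, of which 2051 stayed as reported, 92 fell short of the threshold, 5 newly passed it and 108 moved a count by more than 1.5 times or a value by more than its spread. The counts of members called were 8 in CD11c- IM against AM, 7 in CD11c+ IM against AM and 2 in CD11c+ IM against CD11c- IM, given in this order from here. Library totals alone gave 24, 6 and 6 (0 higher and 6 lower in the last), and a filter of CPM of at least 5 gave 9, 5 and 4. Fitting only the groups compared gave 11, 9 and 1, and DESeq2's Wald test 14, 9 and 6. The contrasts of the libraries labelled Il9r-/- alone gave 4, 3 and 0, those of the WT libraries alone 4, 3 and 0, and the fit without the 3 WT libraries numbered 1 gave 5, 1 and 0. The replicate block, which for these comparisons was genotype and number together, as the libraries pair, gave 14, 8 and 4. For the comparisons of genotypes, where the numbers were not taken to pair the libraries, the block was the number alone and no count moved from 0. Leaving out 1 library gave 4 to 17, 4 to 7 and 0 to 6. The low of 4 in CD11c+ IM against AM came without WT AM replicate 2, WT CD11c+ IM replicate 2 or AM replicate 2 labelled Il9r-/-, and between the IM populations WT CD11c+ IM replicate 2 gave the 0 when left out and WT CD11c- IM replicate 2 gave the 6. The causes were not tested. Medians over members that were not called changed sign in places: leaving out 1 library moved that of CD11c- IM against AM between -0.20 and 0.105. With DESeq2 size factors or no filter the counts stayed within 1.5 times of those reported. All counts of members called between genotypes stayed at 0 in each alternative run. Set against cytosolic ribosome genes, the median of the members was -0.18 in CD11c- IM against AM, -0.29 in CD11c+ IM against AM and -0.05 between the IM populations. Depth limited the isoforms with few counts, such as Ndufa4l2 and Cox4i2, and the number of libraries, 2 per group, limited all comparisons.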

Other observations

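AA467197 (Nmes1), a paralog of Ndufa4 whose protein can take its place in complex IV, lies outside the symbol rule and was looked up after the values of Ndufa4 were seen. It was at 48.5 and 33.4 CPM in the libraries labelled Il9r-/- and 72.6 and 47.7 CPM in the WT libraries of CD11c+ IM. In CD11c- IM it was at 5.06 and 4.86 CPM (labelled Il9r-/-) and 7.80 and 4.42 CPM (WT), and in AM at 1.41 and 1.35 CPM (labelled Il9r-/-) and 4.77 and 2.64 CPM (WT). CD11c+ IM, the population with the lowest Ndufa4, thus had the highest AA467197, by 3.17 log2 units over CD11c- IM (SE 0.28, adjusted p = 0.000737, edgeR) and by 4.45 over AM (SE 0.30, adjusted p = 3.31e-05). The same transcript carries the hairpin of Mir147 (chr2:122640803-122640881, mm10) within an exon (chr2:122640701-122641076). The mature microRNA was not measured, and no relation between these genes was tested.

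Ppargc1a, a coactivator of mitochondrial biogenesis that melanoma cells can express, was at 84.3 and 26.5 CPM (labelled Il9r-/-) and 76.0 and 28.9 CPM (WT) in CD11c- IM, at 1.79 and 1.41 CPM (labelled Il9r-/-) and 9.11 and 4.23 CPM (WT) in CD11c+ IM, and at 1.36 and 0.801 CPM (labelled Il9r-/-) and 2.54 and 1.59 CPM (WT) in AM. Its log2 fold change was 5.16 in CD11c- IM against AM. The pigment gene Pmel took 1560 and 744 CPM (labelled Il9r-/-) and 2010 and 841 CPM (WT) in CD11c- IM, against 13.4 to 67.9 CPM in AM, in the same libraries, and the part of B16 cells in the Ppargc1a level was not tested.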
